A study of Mus musculus with 3 samples.

Results

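Toll-like receptors (TLRs) are germline-encoded sensors of microbial molecules. Tlr2 and Tlr4 sit at the cell surface, while Tlr7, Tlr8, Tlr9 and Tlr13 read nucleic acids inside endosomes. Cd14 and Ly96 are co-receptors that hand lipopolysaccharide to Tlr4. All of these receptors pass their signal through the adaptor Myd88, which gathers the kinase Irak4 into a complex that leads to NF-κB. In the osteoclast lineage, RANKL signaling meets the same route at Traf6, and TLR ligands are known to act differently on early precursors and on committed cells.

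The 10 genes Tlr2, Tlr4, Tlr7, Tlr8, Tlr9, Tlr13, Cd14, Ly96, Myd88 and Irak4 were taken by gene symbol from the mRNA table, and the reads of all their listed transcripts were summed per gene. All 10 had rows, among 15861 genes in all. They were measured in RNA of apoptotic bodies (ABs), the membrane-enclosed fragments that dying cells shed, from 3 stages of mouse osteoclast formation. BMM-ABs came from bone marrow macrophages (BMMs) of C57BL/6 mice aged 11 weeks, grown in M-CSF at 50 ng/mL for 72 h. pOC-ABs came from preosteoclasts, which are BMMs given RANKL at 100 ng/mL and M-CSF at 30 ng/mL for 24 h. mOC-ABs came from mature osteoclasts given the same factors for at least 72 h. In every group the labels name alendronate, at 500 μM for 12 h, as the agent that induced the ABs, whereas the study's methods name staurosporine and a longer culture for mOCs. The doses and times above are those of the labels. The methods also give a shorter M-CSF culture for BMMs and, in the staining assays, M-CSF at 50 ng/mL with RANKL. The labels name the cells, and the libraries were taken as ABs because the title of the series says so. Each stage is 1 library, so no value has a replicate check, no test between stages was possible, and no p-value is given.

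The mRNA table held 9100082 reads for BMM-ABs, 7387317 for pOC-ABs and 7705592 for mOC-ABs. Levels are given as reads scaled to a total of 1000000 per library (RPM), on which scale 3 reads, the floor used here, equal 0.330, 0.406 and 0.389 RPM. Unless stages are named, values in sets of 3 follow the order of differentiation, from BMM-ABs over pOC-ABs to mOC-ABs. Stages are compared as log2 ratios of RPM. G1 sets pOC-ABs against BMM-ABs, G2 sets mOC-ABs against BMM-ABs, and G3 sets the later osteoclast stage against the earlier one. These comparisons share libraries, so they are not independent of each other. The ranges in brackets are 95% exact intervals that cover counting error only. The labelled cell types were checked against marker genes. Of the 10 osteoclast markers listed, 8 had at least 20 reads, and these 8 were more than 2-fold higher in mOC-ABs than in BMM-ABs. Among them Oscar, with 0, 7 and 49 reads, reached 20 reads only through mOC-ABs. Below that limit, Itgb3 went the other way, with 6, 3 and 0 reads, and Calcr had no rows. The whole list summed to 345, 581 and 1870 RPM over the 3 stages. The macrophage list, which holds Csf1r and Lyz2, summed to 5237, 2482 and 1618 RPM, of which Lyz2 alone had 3170, 1334 and 411. Of the 6 macrophage markers with at least 20 reads, 2 were past 2-fold lower in G1, 5 in G2 and 4 in G3. In G3, Csf1r (log2 ratio 0.50) and Cd68 (0.02) were not lower. The plasmacytoid dendritic cell markers Siglech and Ccr9 had 3 reads each over the 3 libraries, and their list summed to 116, 97.6 and 87.5 RPM, nearly all of it Tcf4, which other cells also express. The other marker of that list with at least 20 reads, Spib, had 4, 20 and 0 reads. Its log2 ratio was 2.62 (1.04 to 4.63) for G1 and lay at or below -2.36 for G3, and its part in the results below was not tested. The lists for conventional dendritic, T, stromal and endothelial cells each summed to at most 17.5 RPM. No B cell marker reached 20 reads, and 0 of the 8 neutrophil and 0 of the 6 erythroid markers had rows in the table used here.

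Most receptors were lower in the ABs of the osteoclast stages than in BMM-ABs, whereas Myd88, Irak4, Tlr4 and Ly96 differed less than 2-fold in every comparison, with all their transcripts summed. Of the 10 genes, 9 had at least 20 reads over the 3 libraries, and Tlr8, with 15 reads, did not. In G1, 3 of the 9 (Tlr2, Tlr9 and Tlr13) were more than 2-fold lower and 0 were higher. Of all 12713 genes with at least 20 reads, 6.06% were past this limit on the lower side, 4.87% on the higher side and 10.9% in either direction. In G2, 5 of 9 (Tlr2, Tlr7, Tlr9, Tlr13 and Cd14) were more than 2-fold lower, beside 9.01% of all genes, and 0 were higher, beside 4.15% (13.2% in either direction). In G3, Tlr7 and Tlr13 were the 2 past the limit, both lower in mOC-ABs, beside 6.86% of all genes lower, 3.5% higher and 10.4% in either direction. For G1, G2 and G3, the median log2 ratio of the 9 genes was -0.44, -1.43 and -0.13, and that of all genes was -0.02, -0.05 and -0.05. At any size, 8, 7 and 6 of the 9 were on the lower side, where 51.5%, 54.6% and 54.4% of all genes were. The macrophage list given above had a lower sum in the same comparisons, although Csf1r and Cd68 were not lower in G3. The part of this list in these differences was not tested. In RNA pooled from many bodies, fewer bodies from a kind of cell and less of an RNA per body cannot be told apart.

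**Figure D1:**
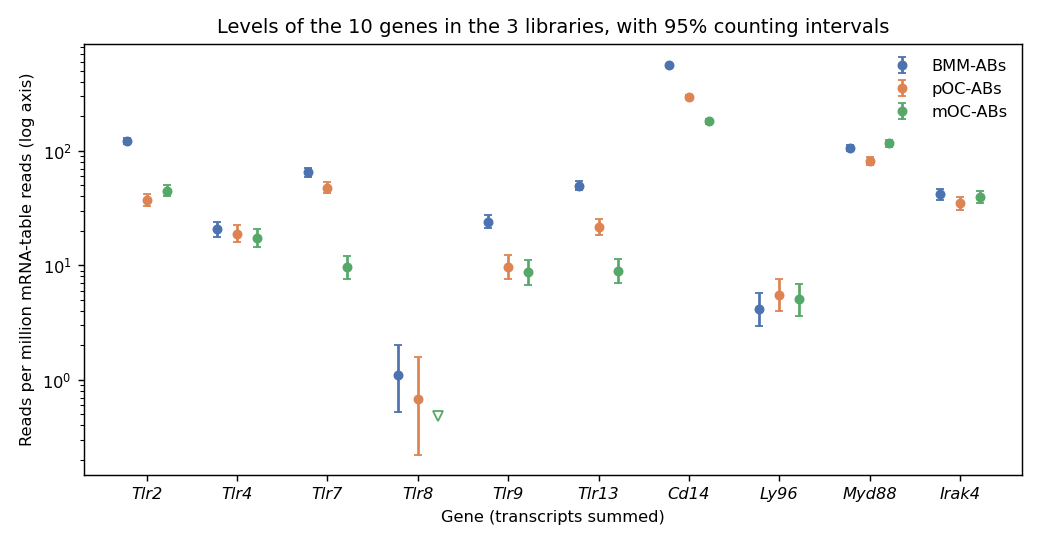
Level of each of the 10 genes in RPM (log axis) in the AB libraries of the 3 stages, BMM-ABs in blue, pOC-ABs in orange and mOC-ABs in green, 1 library each. Bars are 95% exact Poisson intervals, and the open triangle marks the upper limit of Tlr8 at 0 reads in mOC-ABs. Cd14 lies highest in every library, and Tlr7 and Tlr13 sit below 10 RPM only in mOC-ABs.

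Among the cell-surface receptors, Tlr2, which recognizes bacterial lipoproteins as a partner of Tlr1 or Tlr6, was high in BMM-ABs and low in both osteoclast stages. It had 1099, 273 and 346 reads, or 121, 37.0 and 44.9 RPM. Tlr2 was 3.27-fold lower in pOC-ABs than in BMM-ABs (log2 ratio -1.71, -1.91 to -1.52) and 2.69-fold lower in mOC-ABs (-1.43, -1.61 to -1.25). Between the osteoclast stages it was slightly higher in mOC-ABs (0.28, 0.05 to 0.52), so its lowest level was in pOC-ABs. All of its reads came from the transcript Tlr2-201, at chr3:83836272-83841767 of GRCm38 on the minus strand.

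Tlr4, the receptor of lipopolysaccharide, was nearly level over the 3 stages. It had 187, 140 and 134 reads, or 20.5, 19.0 and 17.4 RPM. For G1, G2 and G3 the log2 ratio was -0.12 (-0.44 to 0.21), -0.24 (-0.57 to 0.09) and -0.12 (-0.48 to 0.23), so no difference was detectable at this depth and a 2-fold difference lies outside each interval. The full-length Tlr4-201 held 88.2%, 87.9% and 94.8% of its reads. The remaining reads were on the non-coding Tlr4-203 (15, 12 and 5) and the short coding Tlr4-202 (7, 5 and 2).

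Cd14, a lipid-anchored co-receptor of Tlr4 and a classical marker of monocytes and macrophages, was the most abundant of the 10 genes per transcript length in every library and stepped down at each stage. It had 5111, 2179 and 1398 reads, or 562, 295 and 181 RPM. Cd14 was 1.90-fold lower in pOC-ABs than in BMM-ABs (-0.93, -1.002 to -0.857), 3.10-fold lower in mOC-ABs than in BMM-ABs (-1.63, -1.72 to -1.54) and 1.63-fold lower in mOC-ABs than in pOC-ABs (-0.70, -0.80 to -0.60). In G1 it lay just inside the 2-fold limit. When the libraries were scaled by the reads of the mRNA and lncRNA tables together, its log2 ratio in G1 was -1.13, past the limit.

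Ly96, the secreted protein that binds lipopolysaccharide in complex with Tlr4, was low throughout. It had 38, 41 and 39 reads, or 4.18, 5.55 and 5.06 RPM. Its log2 ratios were 0.41 (-0.26 to 1.09), 0.28 (-0.41 to 0.96) and -0.13 (-0.80 to 0.54) in the same order of comparisons, and at this depth none of these was distinguishable from 0. Within each library, the reads of Cd14 were 27.3 (23.6 to 31.8), 15.6 (13.1 to 18.6) and 10.4 times (8.73 to 12.6) those of Tlr4, a ratio that does not depend on the scaling of the libraries. The ratio of Tlr4 to Ly96 reads was 4.92 (3.46 to 7.17), 3.41 (2.40 to 4.96) and 3.44 (2.39 to 5.04), with overlapping intervals. Among the parts of the lipopolysaccharide receptor, Cd14 thus differed between the stages beyond counting error, and for Tlr4 and Ly96 no difference was detectable.

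Among the 9 genes with at least 20 reads, the endosomal receptors Tlr7 and Tlr13 had the largest differences in G2 and G3 and Tlr2 the largest in G1. The endosomal receptors did not all step at the same stage. Tlr7, a receptor of single-stranded RNA at chrX:167304929-167330558, had 588, 352 and 74 reads, or 64.6, 47.6 and 9.60 RPM. It was 1.36-fold lower in G1 (-0.44, -0.63 to -0.25), 6.73-fold in G2 (-2.75, -3.12 to -2.40) and 4.96-fold in G3 (-2.31, -2.69 to -1.95). Most of its difference thus lay between pOC-ABs and mOC-ABs.

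Tlr13, which recognizes bacterial ribosomal RNA and lies at chrX:106143204-106160493, stepped down at each stage. It had 451, 160 and 69 reads, or 49.6, 21.7 and 8.95 RPM. Tlr13 was 2.29-fold lower in G1 (-1.19, -1.46 to -0.93), 5.53-fold in G2 (-2.47, -2.86 to -2.10) and 2.42-fold in G3 (-1.27, -1.70 to -0.86). In the deposited FPKM summed over its transcripts, which adds the short Tlr13-202 with its 1 read per library, the ratio in G3 stayed within 2-fold. The deposited FPKM of Tlr13-202 rests on a length of 119 bases where the annotation has 337, and with annotated lengths the log2 ratio of Tlr13 in G3 was -1.16.

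Tlr9, the receptor of CpG DNA at chr9:106222598-106226883, was lower in both osteoclast stages, which could not be told from each other at this depth. It had 219, 72 and 67 reads, or 24.1, 9.75 and 8.69 RPM. Tlr9 was 2.47-fold lower in G1 (-1.30, -1.71 to -0.91) and 2.77-fold lower in G2 (-1.47, -1.89 to -1.07), and its log2 ratio in G3 was -0.16 (-0.67 to 0.34).

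Tlr8, the neighbor of Tlr7 on chromosome X at chrX:167242696-167264329, was barely present. It had 10, 5 and 0 reads, all on Tlr8-202, or 1.10, 0.677 and 0 RPM. The 0 reads in mOC-ABs allow up to 0.389 RPM by the floor of 3 reads and up to 0.479 RPM by the exact interval. In G2 the exact interval of its log2 ratio lay at or below -0.92. Between pOC-ABs and mOC-ABs the same interval reached 0.07, and no difference was detectable.

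**Figure D2:**
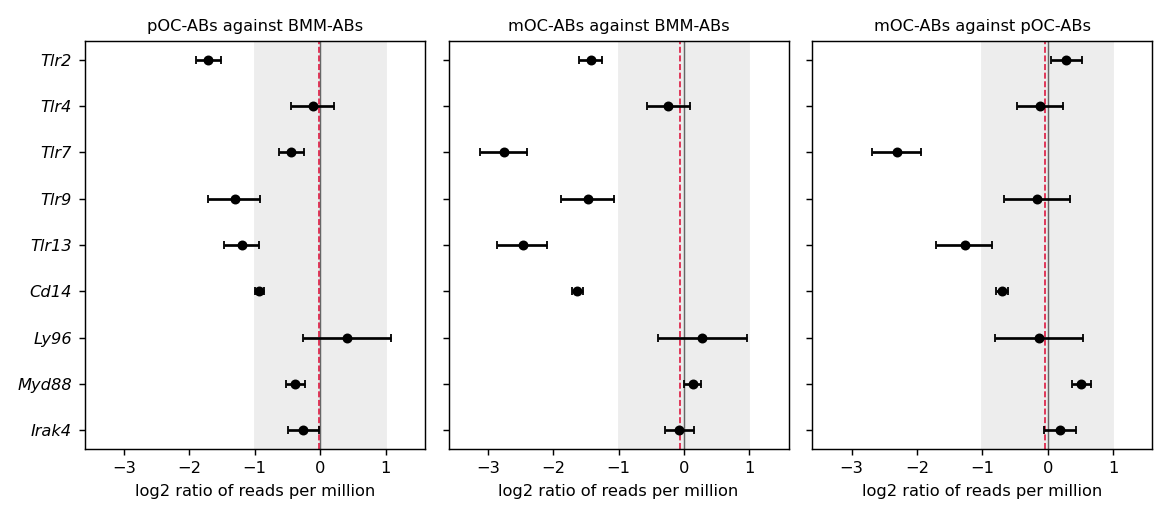
Log2 ratio of RPM for the 9 genes with at least 20 reads, in each of the 3 comparisons, with 95% exact counting intervals. The grey band marks differences under 2-fold and the dashed red line the median of all 12713 genes. Tlr2, Tlr9 and Tlr13 lie left of the band in G1, Cd14 and Tlr7 join them in G2, and of the 9 genes Tlr7 and Tlr13 lie left of it in G3.

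The promoters of Tlr2, Tlr9 and Tlr13, the 3 receptors past 2-fold in both G1 and G2, are shown because the 3 genes were lower together. They are the RefSeq sequences of GRCm38.p6 from 250 bases before to 50 bases after the start site, and 6 of the 10 genes had such an entry. Capitals mark matches on either strand to GAGGAAG, the core bound by the macrophage factor PU.1, or to TGACTCA, the AP-1 element. The matches do not overlap each other. The Tlr2 promoter lies at chr3:83841559-83841858 on the minus strand, that of Tlr9 at chr9:106222348-106222647 on the plus strand and that of Tlr13 at chrX:106143025-106143324 on the plus strand.
Tlr2: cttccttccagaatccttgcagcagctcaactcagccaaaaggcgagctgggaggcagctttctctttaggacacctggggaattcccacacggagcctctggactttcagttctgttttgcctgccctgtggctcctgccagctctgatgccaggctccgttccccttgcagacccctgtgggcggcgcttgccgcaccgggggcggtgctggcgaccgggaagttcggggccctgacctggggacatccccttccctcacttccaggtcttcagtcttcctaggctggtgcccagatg
Tlr9: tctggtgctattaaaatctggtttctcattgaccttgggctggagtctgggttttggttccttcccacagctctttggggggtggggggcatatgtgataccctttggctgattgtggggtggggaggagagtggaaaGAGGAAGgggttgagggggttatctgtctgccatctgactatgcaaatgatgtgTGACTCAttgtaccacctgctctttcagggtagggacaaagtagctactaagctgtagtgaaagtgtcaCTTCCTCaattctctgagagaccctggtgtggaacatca
Tlr13: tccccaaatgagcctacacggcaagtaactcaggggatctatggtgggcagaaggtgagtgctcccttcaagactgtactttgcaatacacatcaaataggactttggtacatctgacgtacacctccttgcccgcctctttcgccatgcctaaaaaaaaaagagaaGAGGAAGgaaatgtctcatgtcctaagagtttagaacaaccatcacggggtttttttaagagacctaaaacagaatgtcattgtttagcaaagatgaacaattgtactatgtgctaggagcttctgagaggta

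Counting the start site as 0 and giving the leftmost base of each match, Tlr9 held GAGGAAG at positions -112 and 11 and TGACTCA at position -58, and Tlr13 held GAGGAAG at position -83. The Tlr2 window held neither. However, Tlr2-201, which took all Tlr2 reads, starts at chr3:83841767, upstream of the start site used for this window. Most of the window thus lies within that transcript, and the bases before its start were only partly covered. Tlr13-201 likewise starts upstream of the site used, at chrX:106143229. Among all 32851 promoters of this length, 13.6% held GAGGAAG and 5.20% held TGACTCA. These matches describe the letters in the windows only.

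Taken over all TLR genes, 9 of the 12 mouse receptors had rows in the table used here, all but Tlr5, Tlr11 and Tlr12. The 9 genes together had 2799, 1112 and 822 reads, or 308, 151 and 107 RPM. Because longer transcripts take more reads, the share of each receptor in these reads is compared between libraries and not between receptors. Tlr7 made up 21.01% (95% Wilson interval 19.5 to 22.6), 31.7% (28.99 to 34.4) and 9.002% (7.23 to 11.2) of the TLR reads. Tlr2 made up 39.3% (37.5 to 41.1), 24.6% (22.1 to 27.2) and 42.1% (38.8 to 45.5). The share of Tlr7 was thus highest, and that of Tlr2 lowest, in pOC-ABs. The share of Tlr4 was 6.68%, 12.6% and 16.3%, higher in both osteoclast stages, where its own level was nearly the same and the total was lower. Tlr13 held 16.1%, 14.4% and 8.39%, and Tlr9 held 7.82%, 6.47% and 8.15%. The 4 endosomal members Tlr7, Tlr8, Tlr9 and Tlr13 together held 45.3% (43.5 to 47.2), 53.0% (50.0 to 55.9) and 25.5% (22.7 to 28.6) of the TLR reads. The ratio of Tlr7 to Tlr2 reads within a library was 0.535 (0.483 to 0.592), 1.29 (1.10 to 1.52) and 0.214 (0.164 to 0.276). This ratio is likewise compared between libraries only, and was highest in pOC-ABs.

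**Figure D3:**
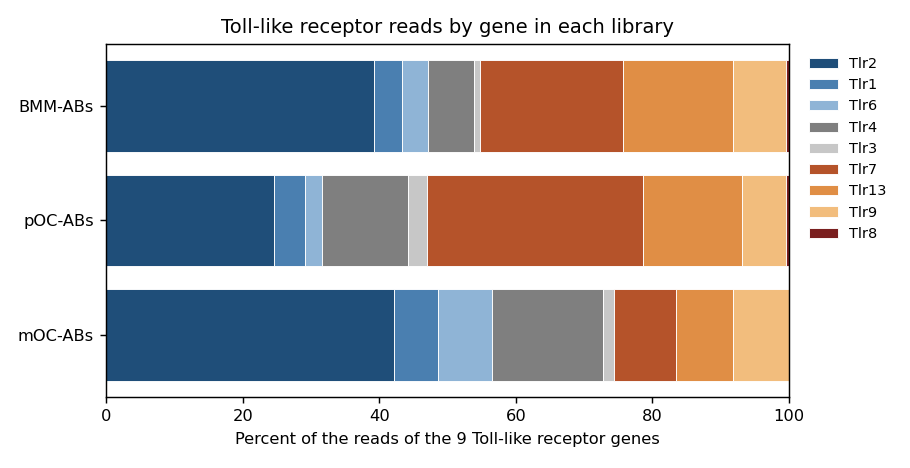
Share of each of the 9 TLR genes in the TLR reads of each library, in percent, as stacked bars. The orange and brown segments of Tlr7, Tlr13, Tlr9 and Tlr8 together fill 45.3%, 53.0% and 25.5% of the bars from top to bottom.

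Myd88, the adaptor of all these receptors, was at a like level in mOC-ABs and BMM-ABs and lower in pOC-ABs. It had 962, 600 and 893 reads, or 106, 81.2 and 116 RPM. Its log2 ratio was -0.38 in G1 (-0.53 to -0.23) and 0.51 in G3 (0.36 to 0.66), and that of 0.13 in G2 had an interval that reached 0 (up to 0.27). The ratio of Tlr2 to Myd88 reads within a library was 1.14 (1.05 to 1.25), 0.455 (0.393 to 0.526) and 0.387 (0.341 to 0.439). Myd88 lies at chr9:119335934-119341411 on the minus strand and overlaps Acaa1a on the opposite strand, which had 1798, 1214 and 1844 reads. Without strand, reads in the overlap cannot be told apart, and whether the counting used strand is not given in the sources used here.

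The reads of Myd88 fell on a coding and a non-coding transcript whose shares differed by stage. Reads of bases that both share were divided between them by the authors' counting. Myd88-201, the coding one, had 862, 555 and 874 reads. Myd88-203, which keeps 549 bases of an intron and has no annotated coding part, had 100, 45 and 19. Its share of the gene was 10.4% (8.62 to 12.5), 7.50% (5.65 to 9.89) and 2.13% (1.37 to 3.30). Myd88-203 was 4.46-fold lower in mOC-ABs than in BMM-ABs (log2 ratio -2.16, -2.95 to -1.44), where Myd88-201 had a ratio of 0.26 (0.12 to 0.40). The edge at which this transcript runs on from its exon into the intron is shown to mark what sets it apart. It lies at chr9:119338546-119338605 of GRCm38 on the minus strand, with the intron in capitals.
Myd88-203: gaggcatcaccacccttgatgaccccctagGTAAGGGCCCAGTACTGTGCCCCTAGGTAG

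Irak4, the kinase that Myd88 recruits, differed less than 2-fold in total between the libraries and was slightly lower in pOC-ABs than in BMM-ABs. It had 378, 257 and 304 reads, or 41.5, 34.8 and 39.5 RPM, with log2 ratios of -0.26 (-0.49 to -0.02), -0.07 (-0.30 to 0.15) and 0.18 (-0.06 to 0.43) for G1, G2 and G3. Beneath these totals, the transcript that held most of the reads was not the same. Irak4-201 had 44, 206 and 270 reads, which is 11.6% of the gene (8.79 to 15.3), 80.2% (74.9 to 84.6) and 88.8% (84.8 to 91.9). Irak4-202 had 331, 0 and 1 reads, and its share in BMM-ABs was 87.6% (83.9 to 90.5). The exact interval of its log2 ratio lay at or below -6.18 in G1, and the ratio in G2 was -8.13 (-13.4 to -5.64). Irak4-203, a non-coding transcript that keeps an intron, had 3, 51 and 33 reads. Without Irak4-202, Irak4 would be past 2-fold higher, with log2 ratios of 2.75 in G1 and 2.93 in G2.

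The coding transcripts Irak4-201 and Irak4-202 share 1347 bases of coding sequence and part at the last exon. Irak4-201 codes for 1380 bases with its stop and Irak4-202 for 1362, of which the last exon holds 33 and 15. These ends are shown as the last 30 shared bases in lower case followed by the coding part of each last exon in capitals, which lies at chr15:94567014-94567046 for Irak4-201 and chr15:94579888-94579902 for Irak4-202, on the plus strand of GRCm38.
Irak4-201: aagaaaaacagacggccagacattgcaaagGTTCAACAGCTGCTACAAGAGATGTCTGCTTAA
Irak4-202: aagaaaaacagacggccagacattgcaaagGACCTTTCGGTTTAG

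The whole last exon of Irak4-202, of 1928 bases at chr15:94579888-94581815, lies inside Twf1, a gene on the opposite strand, and 376 of these bases overlap exons of Twf1-201. Twf1 had 471, 495 and 454 reads in the 3 libraries, or 51.8, 67.0 and 58.9 RPM. Its part in the reads of Irak4-202 was not tested. A further RNA in the lncRNA table, NONMMUT024756.2, lies over the last exon of Irak4-201 and had 92, 49 and 60 reads. Reads of the shared exons are divided between transcripts by the authors' counting, and the part this played in the split of Irak4 was not tested.

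The split of the Tlr7 reads between transcripts also differed by stage. Tlr7-201, Tlr7-202 and Tlr7-203 share their whole coding part, and reads of shared bases are divided between transcripts by the authors' counting. The part this played in the split of Tlr7 was not tested. Tlr7-201 had 404, 238 and 19 reads, Tlr7-202 had 138, 43 and 1, and Tlr7-203 had 37, 60 and 50. Tlr7-201 held 68.7% (64.8 to 72.3), 67.6% (62.6 to 72.3) and 25.7% (17.1 to 36.7) of the gene. Tlr7-203 held 6.29% (4.60 to 8.55), 17.0% (13.5 to 21.3) and 67.6% (56.3 to 77.1). In G2, Tlr7-201 was 18.0-fold lower (log2 ratio -4.17, -4.92 to -3.51), whereas Tlr7-203 had a ratio of 0.67 (0.03 to 1.33). The coding sequences of Tlr7-201, Tlr7-202 and Tlr7-203 are the same 3153 bases, and Tlr7-203 ends 283 bases before Tlr7-201 at the 3′ end, so the difference lies outside the coding part. An RNA of the lncRNA table at the Tlr7 locus, MSTRG.51820.1, had 33, 12 and 7 reads.

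**Figure D4:**
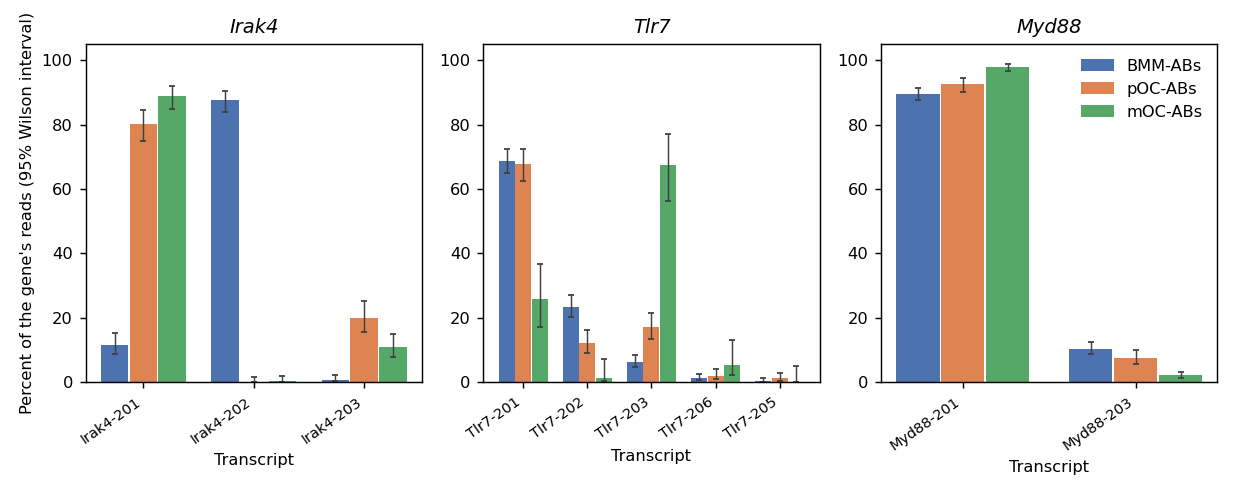
Share of the reads of Irak4, Tlr7 and Myd88 held by each listed transcript, in percent, in the 3 libraries, with 95% Wilson intervals. Irak4-202 holds 87.6% in BMM-ABs and almost nothing in the osteoclast stages, Tlr7-203 holds 67.6% in mOC-ABs, and Myd88-203 is smallest in mOC-ABs.

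In all, 21 of the 30 annotated transcripts of the 10 genes were listed, of which 15 held at least 10% of their gene in at least 1 library. Of the 6 genes with several listed transcripts, the one with the most reads differed between the libraries in G1 for 1 (Irak4), in G2 for 2 (Irak4 and Tlr7) and in G3 for 1 (Tlr7). Over all 9170 genes with at least 2 listed transcripts this was so for 20.2%, 20.4% and 19.8%. No junction of a circular RNA, of 1372 listed, came from any of the 10 genes.

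Per length of transcript, on the deposited FPKM summed over each gene's transcripts, Cd14 stood first in every library at 357, 188 and 115, and Myd88 second at 52.8, 40.8 and 58.9. The FPKM of Cd14 rests on a transcript length other than the annotated one. Next came Tlr2 in BMM-ABs (40.1), Tlr7 in pOC-ABs (17.5) and Irak4 in mOC-ABs (16.1). The intervals of Tlr7 and Irak4 (15.8) overlapped in pOC-ABs, as did those of Irak4 and Tlr2 (14.9) in mOC-ABs. Non-coding transcripts add to these sums, such as Irak4-203 with 5.96 in pOC-ABs and Tlr4-203 with 3.27 in BMM-ABs. The short non-coding Tlr7-206 added 3.63 from 7 reads in pOC-ABs and 1.99 from 4 reads in mOC-ABs. In mOC-ABs, Irak4-203 added 3.70, and the coding Irak4-201 alone had 12.4, below Tlr2. The intervals do not cover this, so the third place in the osteoclast stages depends on which transcripts are summed. In BMM-ABs, Tlr2 was followed by Tlr7 (20.4), Tlr13 (13.1), Irak4 (12.6), Tlr4 (8.13), Tlr9 (6.92) and Ly96 (6.60), and the intervals overlapped between Tlr13 and Irak4 and between the neighbors from Tlr4 to Ly96. In mOC-ABs, Tlr7 (4.55), Tlr13 (3.26) and Tlr9 (2.50) lay below Ly96 (7.98) and Tlr4 (5.47), with overlapping intervals at each step. Tlr8 was last in each library.

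**Figure D5:**
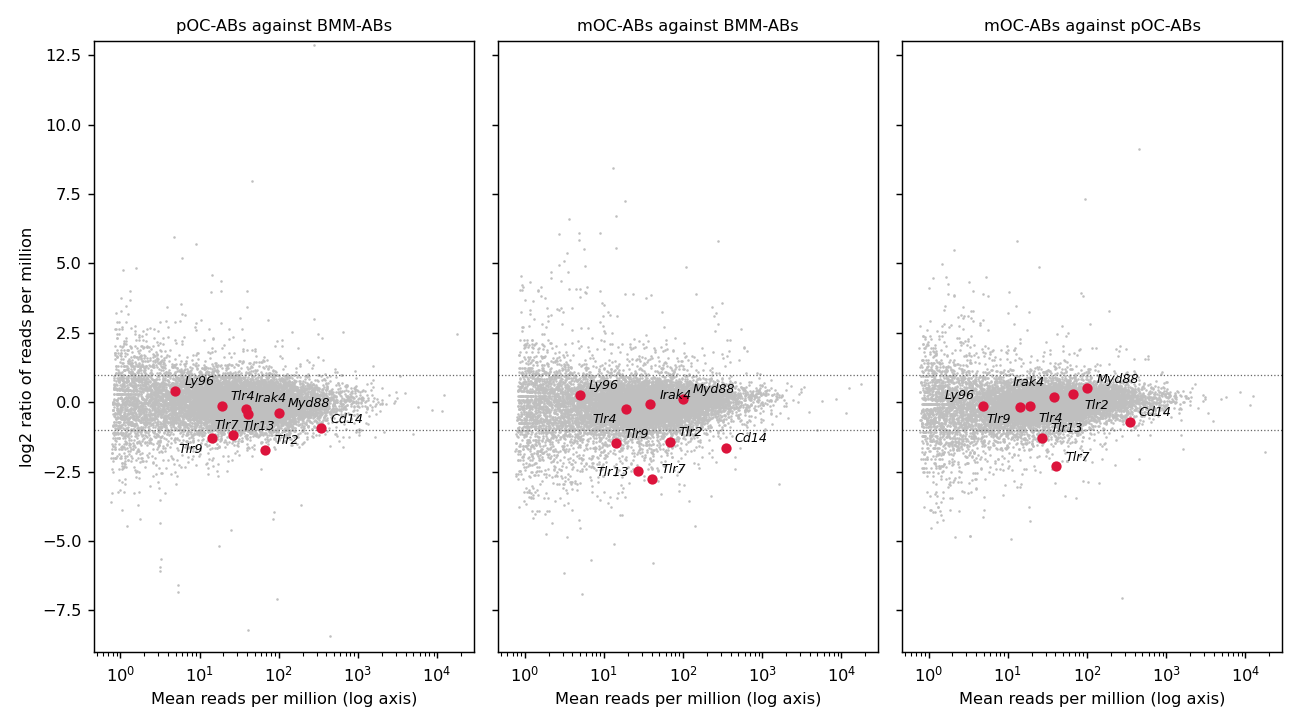
Log2 ratio of RPM against the mean RPM of the 3 libraries (log axis), for all genes with at least 20 reads and at least 1 read in both libraries compared (grey), with the 9 genes in red. Dotted lines mark 2-fold. In G2, Tlr7 and Tlr13 lie lowest of the 9, at log2 ratios of -2.75 and -2.47, while Myd88, Irak4, Tlr4 and Ly96 lie between the dotted lines in all 3 panels.

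Of 34 other genes of the pathway, 30 had rows and all 30 had at least 20 reads. In G1, 2 were past 2-fold lower and 1 higher, in G2 4 and 2, and in G3 7 and 1, with median log2 ratios of -0.26, -0.22 and -0.07. Of all genes, 6.06%, 9.01% and 6.86% were lower and 4.87%, 4.15% and 3.5% higher in this sense. The counts in G1 and G2 were thus near the background. Tlr6, a partner of Tlr2, had 108, 29 and 64 reads and, like Tlr2, was lowest in pOC-ABs, with log2 ratios of -1.60 in G1 and 1.08 in G3. Unc93b1, the chaperone that carries the endosomal receptors to their compartment, had 2632, 1064 and 1314 reads and was at the limit in G1, at -1.01. Ly86, the partner of the lipopolysaccharide-binding Cd180, had 410, 181 and 72 reads, with ratios of -2.27 in G2 and -1.39 in G3. The kinase Ikbke had 341, 180 and 81 reads (-1.83 and -1.21), the inhibitory kinase homolog Irak3 had 209, 154 and 57 (-1.63 and -1.49), and the adaptor Ticam2 had 603, 378 and 194 (-1.40 and -1.02). Past the limit in G3 and not in G1 or G2 were Cd36, which presents lipids to Tlr2 (-1.28, 156, 161 and 69 reads), Tlr3 (-1.21, 23, 31 and 14 reads) and Irak2 (-1.01, 680, 759 and 393 reads). Irf7, an interferon regulatory factor that acts below Tlr7 and Tlr9, was higher in mOC-ABs than in BMM-ABs, with 328, 505 and 591 reads and a ratio of 1.09 in G2. Sarm1, with 4, 10 and 7 reads, was past the limit on the higher side at 1.62 in G1 (-0.17 to 3.75) and 1.05 in G2 (-0.93 to 3.27), but both intervals cover 0 and no difference was detectable at this depth.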

How the data were processed

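The labels give 3 libraries, 1 per stage. Per the submitters' processing notes, the tools were FastQC, HISAT2 and StringTie and the build was GRCm38, and the study's methods describe paired-end libraries of poly-A RNA. The counting tool is not given in the sources used here. The authors deposited read counts and FPKM per transcript for mRNAs and lncRNAs, and junction reads (counts) with a normalized score, SRPBM, for circRNAs. For 19 of the 21 transcripts of the 10 genes, FPKM equalled reads divided by GENCODE M21 length and by the total of the mRNA table, within 1 base.

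Each transcript took its gene symbol from GENCODE M21, and counts were summed per gene. Levels are reads scaled to a mRNA-table total of 1000000 (RPM), and genes with at least 20 reads over the 3 libraries were compared. A gene was called past 2-fold at a ratio above 2 or below 0.5, the limit of the study. With 1 library per stage there is no residual spread, so no count model was fitted. Intervals (95%) are exact Clopper-Pearson for ratios, exact Poisson for levels and Wilson for shares. Reads carry no molecular identifiers, so intervals and floors cover counting error only. The calculation was tested on simulated data. The 10 genes, the lists of 34 pathway genes and 16 other sensors and the markers were chosen with earlier results of these data known. All 10 genes are named, as are transcripts with at least 10% of their gene in at least 1 library, and listed genes past 2-fold in at least 1 comparison. Values outside this rule (Tlr4-202, Tlr4-203, Tlr7-206, Tlr13-202, Twf1, Acaa1a and RNAs of the lncRNA and circRNA tables) are given because they share a locus or belong to a named gene. Alternatives were other scalings, FPKM, coding transcripts only, a pseudocount of 1 RPM, other filters and added lncRNA reads. Python 3.11.15, numpy 2.4.6, pandas 2.3.3, SciPy 1.17.1 and matplotlib 3.10.9 were used.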

Additional observations from a re-analysis of the deposited data

How the results depend on the processing

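The counts of genes past 2-fold take both directions together. Over the alternatives they ranged from 3 to 4 in G1, from 5 to 6 in G2 and from 1 to 2 in G3. The count of 6 in G2 arose without the read filter, through Tlr8 at 0 reads in mOC-ABs. It also arose without Irak4-202, with 5 genes lower and 1, Irak4, higher. The median log2 ratios ranged from -0.64 to -0.37, from -1.53 to -1.37 and from -0.16 to -0.03. With FPKM summed per gene, the count in G3 was 1, because Tlr13 was then within 2-fold, and with FPKM from annotated lengths, an alternative added after seeing the data, it was 2. Under both, Irak4 changed sign in G1 (0.33) and G2 (0.36), since FPKM weighs its transcripts by length. Scaling by the reads of both tables moved the median of all genes by -0.20 in G1, -0.10 in G2 and 0.10 in G3, and Cd14 passed the limit in G1 (-1.13). Leaving out Irak4-202, also chosen after seeing the data, put Irak4 past the limit in G1 (2.75) and G2 (2.93). Median-of-ratios and upper-quartile scaling, the pseudocount, coding transcripts only, added lncRNA reads and other filters changed no call or sign among the 9 genes. No paired analysis was possible because each stage has 1 library. At these depths a gene of about 40 reads, such as Ly96, has an interval wider than 1 on the log2 scale.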

Other observations

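Other innate sensors were compared for scale. Of 16 genes listed, 15 had rows and 14 had at least 20 reads. None of the 14 was past 2-fold in G1, 6 were lower in G2 beside 9.01% of all genes and 4 were lower in G3 beside 6.86%, and their median log2 ratios were -0.27, -0.66 and -0.87. The inflammasome sensor Nlrp3 had 612, 369 and 160 reads, in stage order (-1.70 in G2). The C-type lectin Clec4e, which recognizes mycobacterial glycolipid, had 214, 221 and 17 reads (-3.41 in G2), and the beta-glucan receptor Clec7a had 214, 136 and 56 (-1.69). Nod2, a sensor of bacterial cell wall fragments, had 191, 116 and 66 reads (-1.29), Nlrc4 had 53, 33 and 19 (-1.24), and Clec4n had 7, 11 and 2 (-1.57). The interval of Clec4n in G2, -4.87 to 0.83, covers 0, so no difference was detectable at this depth.

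Among the 30 pathway genes, Traf3 was the only host of listed circular RNA junctions, of which 1 had 0, 0 and 2 junction reads and the other 2, 0 and 3. In the lncRNA table, transcripts also lay over Tlr13 (NONMMUT136321.1, with 5, 2 and 0 reads) and Ly96 (NONMMUT000253.2, with 4, 14 and 6 reads).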
